A study of Mus musculus with 2 samples.

Results

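Calcium enters cells and leaves internal stores through a small number of gene families, and 69 protein-coding genes of these families were followed here in mouse colon. They were chosen by symbol, as all genes named Cacn, Ryr, Itpr, Trpa, Trpc, Trpm or Trpv with a number, Orai, Stim and Atp2a, Atp2b or Atp2c, with Trpm5 left out by the rule, and they came from 21474 protein-coding genes measured among 43346 Ensembl genes. By name and textbook role, 67 of them encode a channel, a calcium sensor or a pump. The other two, Trpc4ap and Trpc5os, share only the letters of the symbol: Trpc4ap encodes an adaptor of a ubiquitin ligase, and Trpc5os is named for its place opposite Trpc5. The tissue was the colon of C57BL/6J mice aged 8 weeks, with no treatment and no transgene given by the labels. There were 2 libraries of polyadenylated RNA longer than 200 nt, numbered as biological replicates 1 and 2 of 1 group. The labels give littermates of both sexes, pooled, and a single donor record for both libraries. The spread between the libraries may therefore be partly technical, and with 1 group no condition was compared.

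A resting cell keeps calcium low in its cytosol. SERCA pumps (the Atp2a genes) move it into the endoplasmic reticulum, PMCA pumps (Atp2b) push it out across the plasma membrane, and SPCA pumps (Atp2c) load the Golgi. Inositol trisphosphate receptors (Itpr) and ryanodine receptors (Ryr) let it out of the store again. When the store empties, the sensors Stim1 and Stim2 open the Orai channels of the plasma membrane, which is called store-operated entry. Voltage-gated channels (Cav, from the Cacn genes) admit calcium when a muscle cell, a neuron or an endocrine cell depolarizes, and TRP channels pass calcium, magnesium or sodium in answer to lipids, heat, stretch or calcium itself. In the gut, smooth muscle contracts on calcium from L-type Cav channels and from the store, and epithelial cells absorb some calcium and magnesium through TRP channels.

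Levels are given in TPM, reads per transcript length scaled to one fixed total, which can be set beside each other between genes. The libraries held 46689262 expected counts in replicate 1 and 45966841 in replicate 2. Markers of colon epithelium summed to 26860 TPM in replicate 1 and 29950 TPM in replicate 2, and smooth muscle markers to 7057 TPM and 6967 TPM in the same order, so the tissue matched its label in both. Replicate 2 stood apart in markers of pancreatic acinar cells, which summed to 625.2 TPM in replicate 1 and 39740 TPM in replicate 2, with 11 of 11 genes higher in replicate 2. Red blood cell markers summed to 524.6 TPM in replicate 1 and 2998 TPM in replicate 2, and adipocyte markers to 249.3 TPM and 516.0 TPM. The insulin gene Ins2 had 0 TPM in replicate 1 and 82.52 TPM in replicate 2, whereas all islet markers together came to 253.2 TPM and 239.1 TPM. Of the 5 islet genes tested, 2 were called higher in replicate 2 and 0 in replicate 1. Their median log2 ratio (replicate 1 over replicate 2) was -0.61, so the sum did not follow most of them. Other sums lay the other way: enteroendocrine markers came to 2474 TPM in replicate 1 and 2232 TPM in replicate 2, with 2 of 9 called higher in replicate 1 (Chgb and Nts). Skeletal muscle markers came to 113.6 TPM and 64.5 TPM, with Acta1 called higher in replicate 1 and Myh4 at 0 TPM in both. Of these 10 skeletal muscle genes, 2 reached a mean of 1 TPM. The 5 tested had a median log2 ratio (replicate 1 over replicate 2) of -0.14, so their sum followed few genes. The part of these cells in any level below was not tested, and in whole tissue more cells of a type and more RNA per cell cannot be told apart.

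The SERCA genes and one auxiliary channel gene differ in the ends of their coding sequences, and these stretches are shown because the results on alternative transcripts turn on them. They come from GENCODE vM21 on mm10 (GRCm38), the build of all positions given here. Those transcripts have the deposited length for Atp2a3 but another length for Atp2a2 and Cacnb3, so for these genes the sequence is that of the vM21 version. Lower case marks 21 bases that the transcripts of a gene share, capitals mark coding bases after or before the point where they part, and each runs 5′ to 3′. The first 3 are the coding ends of Atp2a3 (SERCA3), on the plus strand of chromosome 11 (chr11:72989475-72991752 for Atp2a3-201), which follow 2980 shared coding bases and differ through the use of the last exons.
Atp2a3-201: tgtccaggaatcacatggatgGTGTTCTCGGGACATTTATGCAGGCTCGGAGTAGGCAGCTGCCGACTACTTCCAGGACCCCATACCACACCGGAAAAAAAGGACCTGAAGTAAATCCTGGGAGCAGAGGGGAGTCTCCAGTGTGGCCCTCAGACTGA
Atp2a3-203: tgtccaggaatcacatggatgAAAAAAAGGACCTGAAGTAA
Atp2a3-207: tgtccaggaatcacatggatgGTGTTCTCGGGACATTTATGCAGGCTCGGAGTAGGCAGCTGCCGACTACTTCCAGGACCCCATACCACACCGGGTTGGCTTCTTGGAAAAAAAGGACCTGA
The proteins they encode end after 1038, 999 and 1026 amino acids in that order. The next pair are the coding ends of Atp2a2 (SERCA2), on the minus strand of chromosome 5 (chr5:122457151-122457302 for Atp2a2-201, and 122454291 to 122454304 for Atp2a2-202), after 2983 shared coding bases.
Atp2a2-201: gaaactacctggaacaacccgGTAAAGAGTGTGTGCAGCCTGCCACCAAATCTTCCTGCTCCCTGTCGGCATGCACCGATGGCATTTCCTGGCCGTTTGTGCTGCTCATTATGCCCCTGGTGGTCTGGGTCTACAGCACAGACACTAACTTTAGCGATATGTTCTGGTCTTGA
Atp2a2-202: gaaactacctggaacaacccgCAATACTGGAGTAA
Atp2a2-201 encodes the 1044-residue form known as SERCA2b, found in most tissues, and Atp2a2-202 the 998-residue form known as SERCA2a, best known from heart and slow muscle. The last pair are the coding starts of Cacnb3, a Cav beta subunit, on the plus strand of chromosome 15 (chr15:98632479-98632520 for Cacnb3-202, and 98635169 to 98635213 for Cacnb3-201).
Cacnb3-202: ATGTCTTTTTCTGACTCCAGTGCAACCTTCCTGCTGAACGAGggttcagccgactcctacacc
Cacnb3-201: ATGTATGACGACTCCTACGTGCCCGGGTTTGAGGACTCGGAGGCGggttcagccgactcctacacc
Here the capitals are the first coding exon of each transcript, and the lower case letters are the next 21 coding bases, which both share. The proteins thus begin differently. They also differ further on, since Cacnb3-202 encodes 483 amino acids with 42 bases in capitals, and Cacnb3-201 encodes 457 with 45.

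Of the 69 genes, 38 (55.1%) had a mean level of at least 1 TPM, and each of these reached 1 TPM in both libraries. Among all protein-coding genes 59.4% did. The set as a whole summed to 1908 TPM in replicate 1 and 1861 TPM in replicate 2, which is 0.191% and 0.186% of all TPM. A single gene, the SERCA pump Atp2a3, made up 37.6% of that sum in replicate 1 and 36.7% in replicate 2. There were 27 genes at 5 TPM or more, 11 between 1 and 5 TPM and 31 below 1 TPM. There were 5 genes that passed 100 TPM on average, and these were Atp2a3, Trpc4ap, Trpm4, Orai1 and Stim1.

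**Figure D1:**
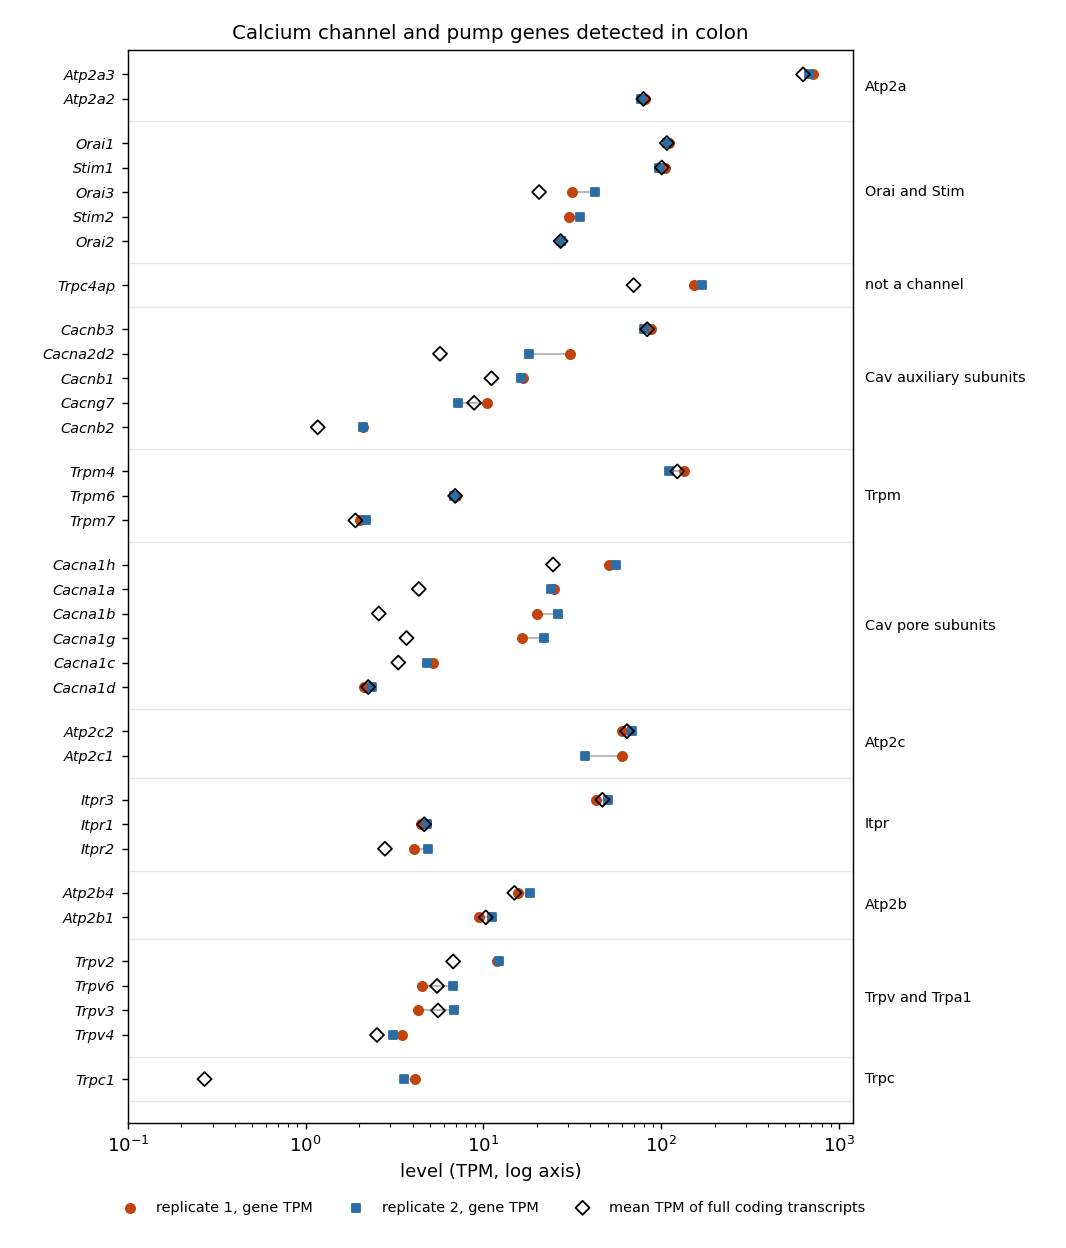
Level of the 34 genes with a mean of at least 2 TPM, on a log axis, by family. Circles are replicate 1, squares replicate 2, and diamonds the mean level of full coding transcripts only; no diamond is drawn for Stim2 and Atp2c1, most of whose level sat in transcripts with no vM21 entry. Atp2a3 stands highest at 718.16 TPM in replicate 1 and 683.14 TPM in replicate 2, and diamonds fall far left of the gene level for Cacna1a, Cacna1b, Cacna1g, Cacna2d2 and Trpc1.

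The pumps were the most abundant group. Atp2a3 (chr11:72961169-72993044, plus strand), a SERCA known from epithelial, endothelial and blood cells, had 718.16 TPM in replicate 1 and 683.14 TPM in replicate 2. Atp2a2 (chr5:122453513-122502225, minus strand), the SERCA of most tissues and of muscle, had 81.59 TPM in replicate 1 and 77.61 TPM in replicate 2. Atp2a3 therefore stood far above Atp2a2 in each library, and the family summed to 780 ± 27.4 TPM (SD, n = 2). Atp2a1, the SERCA of fast skeletal muscle, had 0.01 TPM in replicate 1 and 0.30 TPM in replicate 2, from 1 and 7 counts. Of its exon bases, 21.9% are shared with Rabep2 on the opposite strand, so its few reads are uncertain.

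Atp2a3 was read from several coding ends. The form Atp2a3-201 held 58.7% of its TPM in replicate 1 and 50.5% in replicate 2. Atp2a3-203, whose tail is shortest, held 18.5% in replicate 1 and 30.6% in replicate 2, and Atp2a3-207 held 11.4% and 9.67%. All 3 forms were thus present in both libraries and kept their order, with Atp2a3-201 first and Atp2a3-203 next, while the share of Atp2a3-203 differed more between libraries than that of Atp2a3-207. Atp2a2 was less mixed, with 91.8% of its TPM in replicate 1 and 86.9% in replicate 2 in Atp2a2-201, the SERCA2b form, and 8.24% and 13.1% in Atp2a2-202, the SERCA2a form. No replicate check exists for a shift in these shares.

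The plasma membrane pumps were lower. Atp2b4 had 15.74 TPM in replicate 1 and 18.28 TPM in replicate 2, and Atp2b1, found in most cells, had 9.42 TPM in replicate 1 and 11.24 TPM in replicate 2. Atp2b2 had 0.27 TPM and 0.38 TPM in the same order, and Atp2b3 0.21 TPM and 0.47 TPM. The family thus rested on Atp2b4 and Atp2b1, with a sum of 28.0 ± 3.34 TPM (SD, n = 2). Atp2b4 was split between full coding transcripts, with Atp2b4-201 at 43.7% of its TPM in replicate 1 and 27.5% in replicate 2, and Atp2b4-206 at 33.1% and 24.9%.

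Both Golgi pumps were detected. Atp2c2 (chr8:119700009-119757717, plus strand), the SPCA known from secretory epithelia, had 60.24 TPM in replicate 1 and 68.43 TPM in replicate 2, all of it in a full coding transcript. Atp2c1, the SPCA of most cells, had 60.04 TPM in replicate 1 and 37.33 TPM in replicate 2. Of the Atp2c1 level, 78.3% in replicate 1 and 69.4% in replicate 2 sat in a single transcript of 824 nt that has no entry in vM21. Full coding transcripts of Atp2c1 held 1.26 TPM in replicate 1 and 1.73 TPM in replicate 2. Atp2c1 also shares 18.9% of its exon bases with Aste1 on the opposite strand. The gene level of Atp2c1 is thus a sum over kinds of transcript that differ widely in length, unlike that of Atp2c2.

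**Figure D2:**
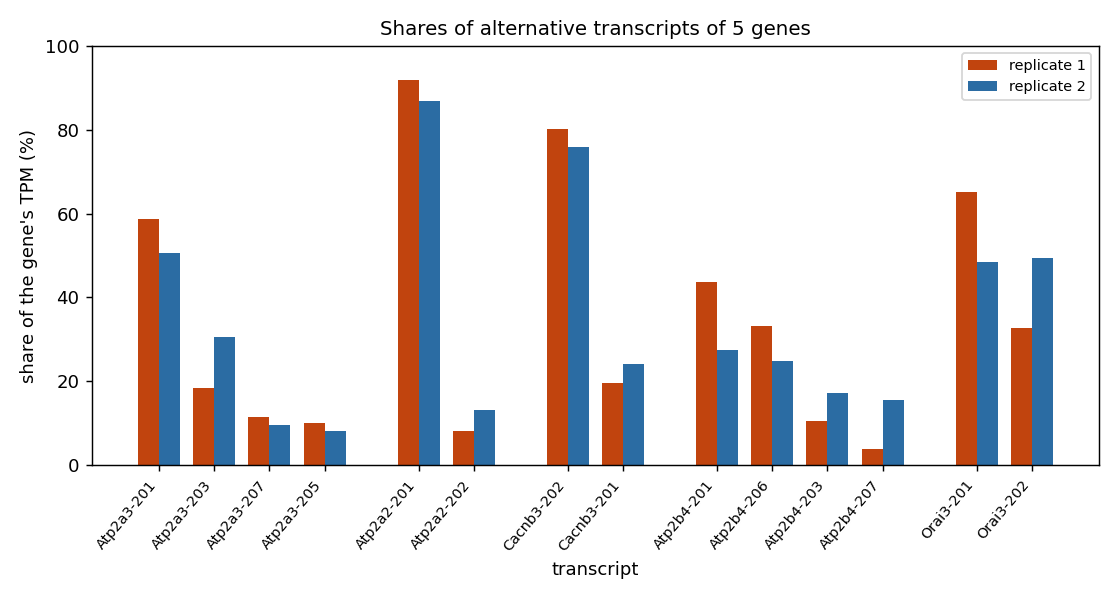
Share of each gene's TPM held by its leading transcripts, as bars from 0 to 100% for replicate 1 (left of each pair) and replicate 2 (right). Atp2a2-201 holds 91.8% in replicate 1 and 86.9% in replicate 2, whereas Atp2a3, Atp2b4 and Orai3 are divided among several transcripts.

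Among the release channels, the inositol trisphosphate receptors were detected and the ryanodine receptors were at or under 1.10 TPM. Itpr3 (chr17:27057304-27122223, plus strand), the receptor best known from epithelial and secretory cells, had 43.24 TPM in replicate 1 and 50.29 TPM in replicate 2. Itpr1, prominent in smooth muscle and neurons, had 4.45 TPM in replicate 1 and 4.85 TPM in replicate 2, and Itpr2 had 4.08 TPM and 4.87 TPM. Itpr3 stood above both in each library, while Itpr1 and Itpr2 overlapped in whole-gene TPM. Over full coding transcripts Itpr2 had 2.75 TPM in replicate 1 and 2.84 TPM in replicate 2, below Itpr1, whose level was all full coding. Ryr3 had 1.10 TPM in replicate 1 and 0.81 TPM in replicate 2, Ryr2, the cardiac receptor also found in smooth muscle, 0.47 TPM and 0.52 TPM, and Ryr1, the skeletal muscle receptor, 0.11 TPM and 0.10 TPM. The 3 Itpr genes summed to 55.9 ± 5.83 TPM and the 3 Ryr genes to 1.56 ± 0.177 TPM (SD, n = 2 each). The full coding Ryr transcripts are very long, and TPM divides their reads by length. The level of Ryr3 rested on 259 counts in replicate 1 and 196 in replicate 2. Of that level, 37.6% in replicate 1 and 39.5% in replicate 2 sat in a transcript of 2616 nt with no vM21 entry. Over full coding transcripts Ryr3 had 0.40 TPM in replicate 1 and 0.30 TPM in replicate 2, below Ryr2 at 0.46 TPM and 0.52 TPM.

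All 5 genes of store-operated entry were detected, at 308 ± 3.05 TPM in sum (SD, n = 2). Orai1 (chr5:123015074-123030456, plus strand), the main pore, had 110.95 TPM in replicate 1 and 108.08 TPM in replicate 2. Stim1 (chr7:102267806-102437319, plus strand), the main sensor in the endoplasmic reticulum, had 105.16 TPM in replicate 1 and 96.84 TPM in replicate 2. The pore and its sensor were thus at like levels. Orai2 had 26.98 TPM in replicate 1 and 27.48 TPM in replicate 2, and Orai3 had 31.75 TPM and 42.26 TPM. Stim2, a sensor that answers to smaller falls of the store, had 30.53 TPM in replicate 1 and 35.02 TPM in replicate 2. Orai1 and Stim1 stood above the other 3 in each library. Orai3 was split between the full coding Orai3-201, with 65.2% of its TPM in replicate 1 and 48.5% in replicate 2, and a shorter form, Orai3-202, with 32.8% and 49.4%. Nearly all of Stim2 was assigned to 2 transcripts with no vM21 entry, of 3427 nt and 652 nt, so its coding content was not judged.

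The pore subunits of the voltage-gated channels were led by Cacna1h (chr17:25374285-25433783, minus strand), a T-type channel that opens at low voltage. It had 50.87 TPM in replicate 1 and 55.81 TPM in replicate 2. Cacna1a, the P/Q-type pore of nerve endings, had 24.88 TPM in replicate 1 and 24.09 TPM in replicate 2, and Cacna1b, the N-type pore, had 20.07 TPM and 26.47 TPM. Cacna1g, another T-type pore, had 16.47 TPM in replicate 1 and 21.92 TPM in replicate 2. Cacna1h stood above these 3 in each library, and the values of Cacna1b overlapped those of both Cacna1a and Cacna1g. Cacna1c, the L-type pore of smooth muscle, had 5.23 TPM in replicate 1 and 4.80 TPM in replicate 2, and Cacna1d, an L-type pore of neurons and endocrine cells, had 2.14 TPM and 2.36 TPM. Cacna1e and Cacna1i were lower, at 0.43 to 1.07 TPM, and Cacna1f, the retinal L-type pore, had a single count.

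This order of the pore subunits depended on which transcripts were counted. Full coding transcripts are those that vM21 calls protein-coding, with a complete coding sequence of at least 80% of the gene's longest. Over them, Cacna1h had 24.49 TPM in replicate 1 and 24.84 TPM in replicate 2. Cacna1a had 4.44 TPM and 4.23 TPM in the same order, Cacna1g 3.45 TPM and 3.94 TPM, Cacna1c 3.29 TPM and 3.35 TPM, and Cacna1b 2.61 TPM and 2.55 TPM. Cacna1h kept the lead, and the smooth muscle pore Cacna1c then stood just below Cacna1g and above Cacna1b. The family summed to 41.8 TPM from full coding transcripts alone, against 131 ± 10.6 TPM from whole genes (SD, n = 2).

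Much of the gap lay in short transcripts. A transcript of 249 nt, Cacna1a-205, held 64.9% of the TPM of Cacna1a in replicate 1 and 71.1% in replicate 2, but 1.69% and 2.40% of its counts. The full coding Cacna1a-201 held 92.4% of the counts in replicate 1 and 92.5% in replicate 2. In Cacna1b, the partial transcript Cacna1b-208 of 523 nt held 65.4% of TPM in each library, against 13.1% and 17.0% of counts. In Cacna1g, Cacna1g-213 of 434 nt held 45.3% of TPM in replicate 1 and 36.3% in replicate 2, and in Cacna1h the partial Cacna1h-207 of 879 nt held 40.0% and 50.1%. TPM divides counts by a length, so a few reads on a short transcript can weigh as much as many on a long one. In replicate 1, Cacna1a-205 had 16.15 TPM from 23.0 counts, and Cacna1a-201 had 4.44 TPM from 1253.63 counts. The printed lengths of 249 nt and 7926 nt alone do not give this order. TPM of such short transcripts, and gene levels that rest on them, are therefore uncertain. Cacna1s, the skeletal muscle pore, had 1.80 TPM in replicate 1 and 1.60 TPM in replicate 2, with 100% and 99.4% of it in a noncoding transcript of 1001 nt and 0 TPM in full coding ones. Part of its exons is shared with Gm37759 on the opposite strand.

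**Figure D3:**
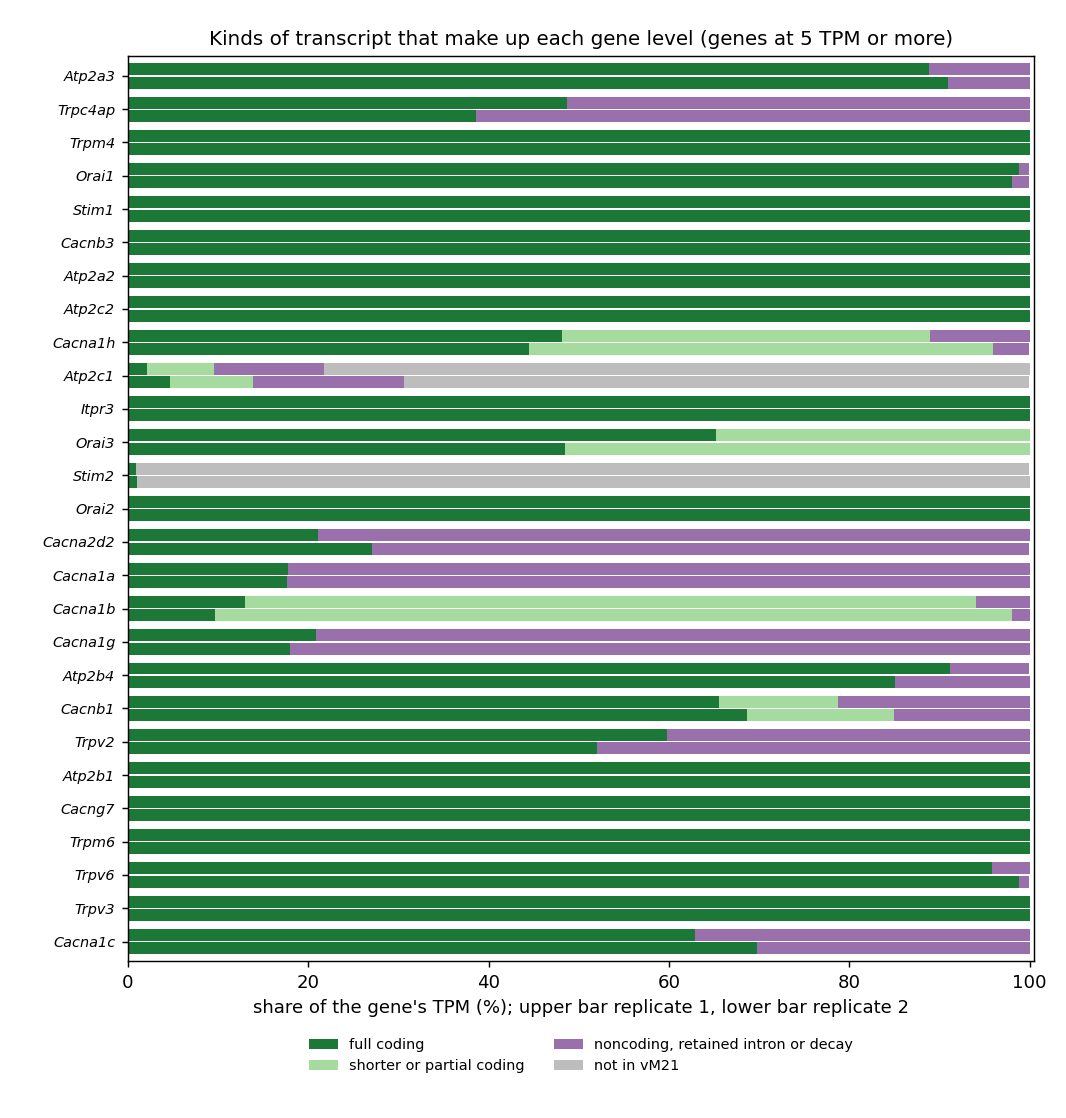
Share of each gene's TPM in full coding transcripts, shorter or partial coding ones, noncoding, retained intron or decay transcripts, and transcripts with no vM21 entry, for the 27 genes at 5 TPM or more (upper bar replicate 1, lower bar replicate 2). Bars are full coding throughout for Trpm4, Stim1, Atp2a2, Itpr3 and others, and mostly not for Cacna1a, Cacna1b, Cacna1g and Cacna2d2.

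Across the 25 genes at 5 TPM or more whose transcripts could be placed in vM21, the median share of TPM in full coding transcripts was 97.6%, and among all such protein-coding genes it was 93.7%. In 6 of the 25, under 50% of TPM lay in full coding transcripts, as it did in 23.6% of all such genes. The 6 were Trpc4ap, Cacna1h, Cacna2d2, Cacna1a, Cacna1b and Cacna1g, so 5 of them were Cav subunits. Stim2 and Atp2c1 were left out of this count, since most of their TPM lay in transcripts with no vM21 entry.

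Of the auxiliary Cav subunits, the beta subunit Cacnb3 (chr15:98630840-98644529, plus strand) led with 87.31 TPM in replicate 1 and 79.82 TPM in replicate 2. Beta subunits carry the pore to the membrane. Its start Cacnb3-202 held 80.3% of TPM in replicate 1 and 75.9% in replicate 2, and Cacnb3-201 held 19.7% and 24.1%. The first coding exon of Cacnb3-202, shown above, was thus the main one in both libraries. Cacnb1 had 16.73 TPM in replicate 1 and 16.38 TPM in replicate 2, and Cacnb2 2.11 TPM in each. Cacna2d2, an alpha-2-delta subunit, had 30.77 TPM in replicate 1 and 18.17 TPM in replicate 2, but a retained-intron transcript of 604 nt held 78.3% and 71.6% of that. Cacna2d1, the alpha-2-delta subunit of muscle, had 1.32 TPM in replicate 1 and 1.20 TPM in replicate 2. Cacng7, a gamma subunit known from the nervous system, had 10.54 TPM in replicate 1 and 7.21 TPM in replicate 2. The other gamma subunits stayed at or below 0.83 TPM in both libraries, and Cacnb4, Cacna2d3 and Cacna2d4 at or below 0.26 TPM. The auxiliary family summed to 139 ± 17.0 TPM (SD, n = 2), and 6 of its 16 genes were detected.

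TRP channels of the melastatin family were dominated by Trpm4 (chr7:45302632-45333780, minus strand), which passes sodium when cytosolic calcium rises. It had 135.54 TPM in replicate 1 and 111.26 TPM in replicate 2, all in a full coding transcript of 1213 amino acids, and made up 92.6% and 91.5% of its family. Trpm6, the epithelial channel of magnesium uptake, had 7.02 TPM in replicate 1 and 6.86 TPM in replicate 2, and the widely expressed Trpm7 had 2.02 TPM and 2.19 TPM. Trpm2, known from immune cells, had 1.73 TPM in replicate 1 and 1.14 TPM in replicate 2, of which full coding transcripts made 0.35 TPM and 0 TPM. Trpm4 thus stood far above the rest in each library, and Trpm1, Trpm3 and Trpm8 were at or under 0.08 TPM.

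Among the vanilloid channels, Trpv2 had 12 TPM in replicate 1 and 12.24 TPM in replicate 2. The full coding Trpv2-201 held 49.9% of that in replicate 1 and 48.4% in replicate 2, and the noncoding Trpv2-203, of 1005 nt, 37.0% and 43.6%. Over full coding transcripts Trpv2 had 7.17 TPM in replicate 1 and 6.36 TPM in replicate 2. Trpv6 (chr6:41620624-41636405, minus strand), a calcium-selective channel of calcium-absorbing epithelium, had 4.51 TPM in replicate 1 and 6.74 TPM in replicate 2. Trpv3 (chr11:73267388-73300363, plus strand), a warmth channel best known from skin, had 4.30 TPM in replicate 1 and 6.82 TPM in replicate 2. Both were higher in replicate 2, which also had more of the pancreatic acinar, red blood cell and adipocyte markers. A tie between these was not tested. Trpv4, a channel that answers to swelling, had 3.50 TPM in replicate 1 and 3.09 TPM in replicate 2. The pain and heat channels of sensory nerves were low, with Trpv1 at 0.46 TPM in replicate 1 and 0.37 TPM in replicate 2, and Trpa1 at 0.21 TPM and 0.30 TPM.

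The canonical TRP channels were the lowest of the TRP families, at 5.76 ± 0.636 TPM in sum (SD, n = 2). Trpc1 had 4.11 TPM in replicate 1 and 3.57 TPM in replicate 2, of which full coding transcripts made 0.26 TPM and 0.28 TPM. Trpc4 and Trpc6, which carry cation current in smooth muscle, had 0.19 to 0.24 TPM in both libraries. Trpc1 thus led the family by gene level, while little of that level lay in full coding transcripts.

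There were 5 genes with no count in either library, namely Trpc2, Trpc5, Trpc5os, Trpm8 and Trpv5. A count of 0 allows up to 3 counts, or a CPM (counts scaled to one fixed library total) of 0.0648 in replicate 1 and 0.0659 in replicate 2. Trpm8 is the cold channel of sensory nerves, and Trpv5 the calcium channel of the kidney. The value of Trpc2 is uncertain, because 97.5% of its exon bases are shared on the same strand with Xntrpc, which took 479.67 counts in replicate 1 and 300.87 in replicate 2. Trpc4ap, which is no channel, had 152.32 TPM in replicate 1 and 171.06 TPM in replicate 2, of which the full coding Trpc4ap-201 held 48.0% and 37.4% and the noncoding Trpc4ap-210, of 890 nt, 47.4% and 57.5%.

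Between the libraries, calls in the set were few and near the share among all genes. Of its 69 genes, 58 had a summed count of at least 10 and could be tested, and 2 of them (3.45%) were called, which needed an adjusted p no higher than 0.05 and a ratio of 2-fold or more, against 6.35% of all 17713 genes tested. The exact binomial test behind these calls knows only counting error, and it sets one library against another rather than conditions. Both called genes were higher in replicate 2, where 3.81% of all genes were called, and none was higher in replicate 1, where 2.55% were. The median log2 ratio (replicate 1 over replicate 2) was -0.01, and 54 of the 58 (93.1%) lay within 2-fold, against 91.2% of all genes tested. At any fold, 24 genes (41.4%) passed the adjusted p, 12 in each direction, against 49.4% of all genes (25.6% in favour of replicate 1 and 23.8% in favour of replicate 2).

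The called genes were both rare. Atp2b3 (X chromosome, 73503086 to 73571005, plus strand), a plasma membrane pump of brain, had 34 counts in replicate 1 against 73 in replicate 2, or -1.12 as a log2 ratio (exact binomial test, adjusted p = 0.000334). Replicate 1 held 31.8% of these reads (exact 95% interval 23.1% to 41.5%), where the library sizes gave 50.5%. Trpc7 had 3 counts in replicate 1 against 14 in replicate 2, or -2.08 as a log2 ratio (exact binomial test, adjusted p = 0.0163), with 17.6% of its reads in replicate 1 (interval 3.8% to 43.4%). Both calls were lost, with adjusted p = 1.0, in edgeR's exact test at the spread estimated between the libraries, a coefficient of variation of 0.271. That test called 1.35% of all genes. The spread was estimated from the same 2 libraries that were then compared, so it takes in their differences. The loss of a call is therefore no independent check.

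**Figure D4:**
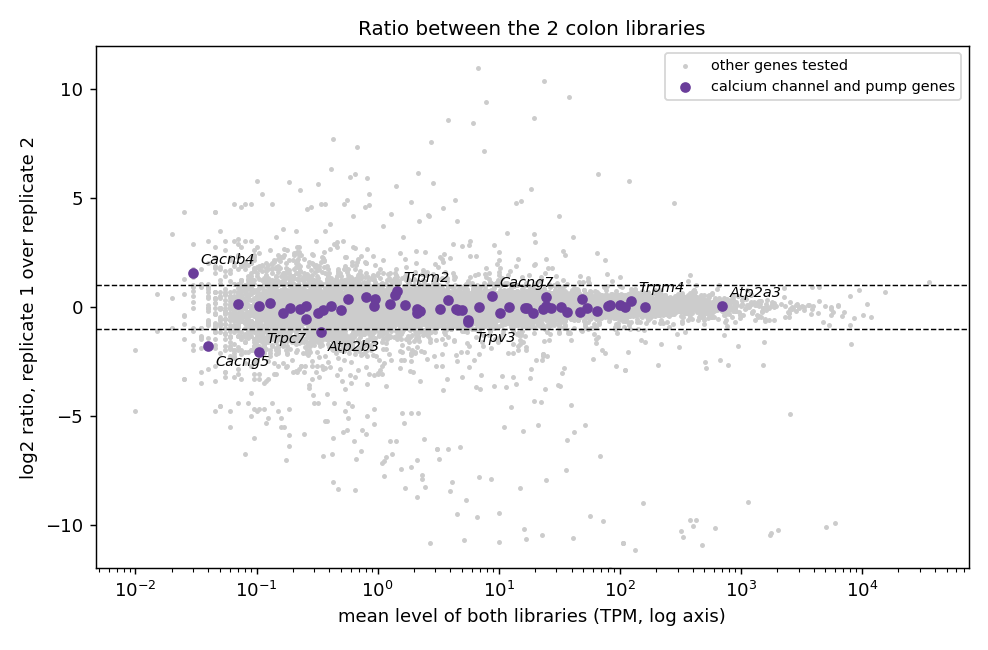
Log2 ratio of scaled counts, replicate 1 over replicate 2, against the mean level in TPM on a log axis; purple points are the tested genes of the set, grey points the other tested genes, and dashed lines mark 2-fold. The set lies close to 0 at levels above 1 TPM, and the points beyond 2-fold are Atp2b3, Trpc7, Cacnb4 and Cacng5, all under 1 TPM.

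Among well-measured genes the ratios were modest. Trpv3 had 884 counts in replicate 1 against 1385 in replicate 2 and was lower in replicate 1 at a log2 ratio of -0.68 (exact binomial test, adjusted p = 3.55e-27). Trpv6 had 445 and 661 counts, a log2 ratio of -0.60 (exact binomial test, adjusted p = 5.25e-11). Trpm4 was higher in replicate 1, at 20000 counts against 16223, a log2 ratio of 0.27 (exact binomial test, adjusted p = 1.38e-69). None of these reached 2-fold, and these p-values cover counting error only. No gene among them passed the adjusted p in edgeR's exact test at the estimated spread. Of the genes at 1 TPM or more, Trpm2 with a log2 ratio of 0.73, Cacng7 with 0.53 and Cacna2d2 with 0.45 were also higher in replicate 1.

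The wider pathway was described by 9 lists of partner genes, of which 182 were measured and 138 had at least 1 TPM on average. Of 167 tested, 3 were called in favour of replicate 1 and 5 in favour of replicate 2, where 2.55% and 3.81% of all genes tested were called. Their median log2 ratio was 0.07. No call fell among release channel partners (25 tested), store-operated entry regulators (12 tested) or magnesium transport genes (11 tested), and lists this short would hold few at the share of 6.35% among all genes. Leading genes are given by whole-gene TPM. Among the partners of release channels, the store chaperone Hspa5 led with 828.08 TPM in replicate 1 and 865.57 TPM in replicate 2, followed by Sri, a calcium-binding regulator, and Ahcyl2. Over full coding transcripts alone this order did not hold: Calr, another store chaperone, had 168 TPM in replicate 1 and 140 TPM in replicate 2, against 79.7 TPM and 76.7 TPM for Hspa5. Among the entry regulators, Saraf, which closes store-operated entry, had 182.68 TPM in replicate 1 and 121.36 TPM in replicate 2, and Ubqln1 and Esyt1 came next. Cnnm4, a magnesium exporter of gut epithelium, led the magnesium list at 202.84 TPM in replicate 1 and 189.16 TPM in replicate 2, ahead of Nipa2 and Mrs2.

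Upstream of the Itpr genes, the G protein Gna11 had 308.92 TPM in replicate 1 and 254.20 TPM in replicate 2, while the phospholipase Plcb3 had 202.30 TPM and 179.81 TPM, with Gna14 next. Plcd3, another phospholipase, was called, at 8.12 TPM in replicate 1 and 22.24 TPM in replicate 2. Downstream, the calmodulin gene Calm3 had 547.54 TPM in replicate 1 and 423.99 TPM in replicate 2, the kinase inhibitor Camk2n1 had 93.90 TPM and 81.49 TPM, and the kinase Camk2b was called at 8.89 TPM and 20.24 TPM. The calcium-activated channels Ano1, a chloride channel of pacemaker cells, Kcnn4 and Kcnma1 led theirs, Ano1 at 144.83 TPM in replicate 1 and 169.50 TPM in replicate 2. Over full coding transcripts Kcnn4 stood first, at 99.4 TPM in replicate 1 and 103 TPM in replicate 2, against 66.6 TPM and 61.1 TPM for Ano1. Stac3 was called from 3 counts and 18 counts. Tmbim6, Smdt1 and Vdac2 led the exchange and mitochondrial list, in which the rare Slc24a5 was called higher in replicate 1.

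The vitamin D and transcellular list bears on Trpv6. Cldn15, a pore-forming junction protein, had 172.26 TPM in replicate 1 and 161.07 TPM in replicate 2, the vitamin D receptor Vdr 126.96 TPM and 125.79 TPM, and its partner Rxra 74.04 TPM and 62.31 TPM. S100g, calbindin-D9k, which ferries calcium through absorbing cells, was called higher in replicate 1, at 16.52 TPM against 3.46 TPM in replicate 2, or 2.17 as a log2 ratio (exact binomial test, adjusted p = 1.71e-19). It was the one list gene also called by edgeR's exact test at the estimated spread (adjusted p = 0.0434). Among other TRP-like and endolysosomal channels, Mcoln1 had 556.21 TPM in replicate 1 and 298.19 TPM in replicate 2 and was called at a log2 ratio of 1.03, Tmc4 and Tmem63a followed it in whole-gene TPM, and over full coding transcripts Tmc4 stood first, at 276 TPM in replicate 1 and 200 TPM in replicate 2. Mcoln3 and Pkd1l1 were called higher in replicate 2 from 1 count in replicate 1 each.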

How the data were processed

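Polyadenylated RNA of colon was measured in 2 libraries of 1 group, which per the labels were stranded and read from both ends at 76 nt. The authors deposited, per gene and per transcript, expected counts (reads estimated per feature, not normalized), TPM and the percent of a gene's TPM taken by each transcript. According to notes deposited with the files, they rest on mm10 and GENCODE M4, and per the file headers the columns look like RSEM output. Not given in the sources used here are the quantifier, its version and strand use, so overlapping and antisense genes are uncertain. Splice junction and contig files on mm9 were not used. Symbols and transcript kinds came from GENCODE vM21 by identifier, and 42462 of 43346 Ensembl genes matched. Rows that are no Ensembl gene took 0.895% of expected counts in replicate 1 and 1.02% in replicate 2 and stayed out of library sizes.

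Expected counts were rounded and compared by a two-sided exact binomial test with TMM-scaled library sizes (edgeR 4.0.16, R 4.3.3), over genes whose counts summed to 10 or more, with Benjamini-Hochberg adjustment over all. Calls needed an adjusted p no higher than 0.05 and a 2-fold ratio, with 0.5 added to counts. Intervals and floors cover counting error only. On data simulated with counting error alone for this comparison, 200 of 200 changed genes among 17742 were recovered and 1 unchanged gene was called. The changed genes were given a change larger than the 2-fold limit and were drawn from genes with an expected summed count of at least 100. Recovery near that limit or at lower counts was therefore not measured. Named are all members of at least 5 TPM, called members, and the 3 highest and all called genes of each list; transcripts are named for members of at least 10 TPM. A few genes that this rule takes are not reported here. The class of full coding transcripts was defined after seeing the data. Members and lists were chosen with earlier results of these data known.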

Additional observations from a re-analysis of the deposited data

How the results depend on the processing

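Members detected numbered 34 to 43 across the alternatives that kept the limit at or below 1 TPM (38 in the deposited TPM, 34 in full coding transcripts, 42 at 0.5 TPM, 43 with posterior mean TPM) and 27 at 5 TPM. From either library alone they were 38 to 40. Genes of the set differing between libraries were 2, and stayed at 2 with DESeq2 size factors, unscaled totals, no filter and posterior mean counts; there was 1 at a summed count of at least 100, 0 in edgeR's exact test at the estimated spread (24 passed the adjusted p of the exact binomial test at any fold). List genes differing were 8, and 4, 1 and 90 under those alternatives. A family sum counted as moved where it changed by at least its SD between the libraries. Posterior mean TPM moved the Ryr sum to 1.95 TPM and the Trpc sum to 6.89 TPM. Leaving out acinar genes raised every other gene alike, by 0.0626% in replicate 1 and 4.14% in replicate 2. By this, Orai and Stim came to 314 TPM, beyond their small SD of 3.05 TPM. Atp2a came to 796 TPM, within its SD of 27.4 TPM. With full coding transcripts alone, sums were 41.8 TPM for Cav pores, 113 for Cav auxiliary subunits, 0.945 for Ryr, 257 for Orai and Stim, 2.07 for Trpc, 20.8 for Trpv and Trpa1, 709 for Atp2a and 65.8 for Atp2c; those of Orai and Stim and of Atp2c leave out most of Stim2 and Atp2c1. Of 22 leading transcripts, 14 were full coding by TPM and 20 by counts, and 13 to 16 from either library alone. None of the 18 log2 ratios followed reversed its sign, and a reversal was looked for in these ratios only. No paired analysis was possible because there is 1 group. Leaving out a library leaves nothing to compare, so the test was not rerun so.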
